A study of Mus musculus with 16 samples.

Results

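Livers of mice labelled null for Fgf1, the gene of the secreted growth factor FGF1, were compared between a high-fat diet (HFD) and normal chow. The groups are 2 arrays of Fgf1 null liver on HFD and 2 arrays of Fgf1 null liver on chow, 4 of the 16 arrays of the series, and were taken by genotype, tissue and diet from the sample labels. All mice were 24 weeks old and had been on their diet for 16 weeks. The other liver arrays of the series, 2 of wild-type liver on chow and 2 of wild-type liver on HFD, entered the same fit and are used below to set the diet difference of Fgf1 null liver beside that of wild-type liver. The labels call the 2 arrays of a group technical replicates, so each group is 1 RNA sample, and they do not say whether that sample came from 1 mouse or a pool. Both diet groups carry the same FGF1 null label, with no further description of the allele, and the sex, the strain and the composition of the diets are not given in the sources used here. Every test below therefore compares 2 RNA samples against the spread between arrays of the same RNA. How far mice of 1 group differ was not measured.

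The liver takes up dietary fat, makes fatty acids and cholesterol under the control of the transcription factors SREBP-1c and SREBP-2, and burns fatty acids under the control of the nuclear receptor PPARα. Triglyceride that is neither burnt nor exported is stored in lipid droplets coated by perilipin and CIDE proteins, and prolonged fat feeding commonly leads to a fatty liver with more macrophages. FGF1 acts through cell surface FGF receptors, and the mouse gene is known to be induced in fat tissue by high-fat feeding under the control of PPARγ.

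Expression was read as probe intensity, background corrected and normalized, and is given on the log2 scale. Differences are HFD minus chow ± the standard error (SE) of the limma fit, with n = 2 arrays in each group. A gene was called higher or lower at a Benjamini-Hochberg adjusted p under 0.05 over all features tested together with a change of at least 2-fold. Of the 25697 probes, 10626 to 11650 were detected on each of the 4 arrays, and 8211 named genes and 683 unnamed probes were tested. Where a probe was detected on neither array of the lower group, the change is given as at least a number of folds, measured against the lowest detected signal of those arrays.

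Fgf1 itself was measured first. Its brighter probe read 9.24 and 9.48 on the chow arrays and 8.18 and 8.28 on the HFD arrays of Fgf1 null liver, against 10.38 and 10.23 in wild-type chow and 9.63 and 9.68 in wild-type HFD. The probe was thus detected in the livers labelled null, at a lower level than in wild-type liver on the same diet. It was lower on HFD than on chow by -1.13 ± 0.13 in Fgf1 null liver. That call was lost with median scaling (-0.90), with the authors' normalized values (-0.85) and without background correction (-0.95). A second, dimmer probe was also detected in both null groups, and its chow arrays, 8.46 and 8.12, overlapped those of wild-type chow, 7.85 and 8.49. The sources used here do not say which part of the gene is altered, so neither probe checks the label. Camk2b, a calcium-dependent protein kinase subunit, read 8.57 and 8.32 on chow and 8.91 and 8.80 on HFD in Fgf1 null liver and was not detected on any wild-type liver array. It was chosen with earlier results of these data known, so this difference does not check the labels either. Of 12 hepatocyte markers 9 were detected well enough to be tested, among them Ttr and Apoa1, with a summed intensity of 341539 and 344415 on chow and 315018 and 323027 on HFD. Tat and Fgb were the hepatocyte markers detected on none of the 4 arrays.

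HFD and chow livers of Fgf1 null mice differed in 763 of 8894 features, or 8.58%, of which 523 (5.88%) were higher and 240 (2.7%) lower on HFD. Of these, 89 were higher and 36 lower by at least 4-fold. Counts in the gene lists below are to be read beside the shares of 5.88% higher and 2.7% lower. A count near those shares says little about its list. The arrays of the 2 groups did not overlap for any of the 763, which the call itself all but requires, so it is no further evidence. With each array scaled to its median in place of quantile normalization, the median difference of all features was 0.18, against 0.02 here, and the calls became 715 higher and 170 lower. A fit that took the RNA sample as the unit, with additive effects of diet and genotype over the 4 liver samples, called 0 features in limma, with 1177 at an unadjusted p under 0.05 and a smallest adjusted p of 0.134. That fit averages the diet effect over both genotypes. Its 1 residual degree of freedom is the difference between their diet effects, not the spread between mice. It therefore cannot decide on the diet effect in Fgf1 null liver alone.

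Among named genes, the largest increases were of Serpina7, Cidea, Cyp2b9 and Gpnmb. Serpina7, which encodes thyroxine-binding globulin, read 5.23 and 4.57 on chow, detected on 1 of the 2 arrays, and 10.73 and 10.69 on HFD, a difference of 5.81 ± 0.31. Cidea, a lipid droplet protein known chiefly from brown fat, was not detected on chow and read 10.35 and 10.23 on HFD, at least 33.2-fold higher. Cyp2b9, a cytochrome P450 that is more abundant in female mouse liver, was likewise not detected on chow and read 9.66 and 9.69 on HFD, at least 21.7-fold higher. These 3 genes went from at or near background to well above it. Next in size came Gpnmb, a glycoprotein of lipid-laden macrophages, at 4.56 ± 0.22, Nrep at 3.96 ± 0.12 and Gsta1, a glutathione transferase, at 3.58 ± 0.30. Gpnmb too was near background on chow, at 5.28 and 4.81, and was detected on 1 of the 2 chow arrays. The chemokine gene Ccl4, the neurotrophin receptor gene Ntrk2 and the surface antigen gene Ly6d were not detected on chow and were at least 7.89-fold, 7.9-fold and 7.49-fold higher on HFD. Lgals1 (galectin-1), Mmd2 and Anxa2 (annexin A2) were higher by 3.33 ± 0.12, 3.19 ± 0.18 and 3.18 ± 0.12. Mmd2 was detected on 1 of the 2 chow arrays.

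Among named genes, the largest decreases were of Cyp4a31, Cyp4a14, Moxd1 and Mt1. Cyp4a14, a fatty acid ω-hydroxylase and PPARα target, read 14.66 and 15.03 on chow and 9.44 and 9.01 on HFD, a difference of -5.62 ± 0.18. Cyp4a31 of the same family read 13.70 and 13.77 on chow and 8.20 and 7.96 on HFD, and differed by -5.65 ± 0.13. Transcripts of such close relatives can bind each other's probes, so the pair does not give 2 independent measurements. Mt1, a metallothionein that binds zinc and copper, fell from 15.77 and 15.71 to 11.94 and 12.01, and Mt2 went below detection, at least 7.46-fold lower. Moxd1, a monooxygenase-like gene, read 8.99 and 8.92 on chow and was not detected on HFD, at least 14.2-fold lower. Etnppl, a lyase that breaks down phosphoethanolamine, differed by -3.44 ± 0.25, and Igfbp2, an IGF-binding protein, by -3.24 ± 0.12. Cyp2b10, the classic target of the nuclear receptor CAR, and Cd163, a haemoglobin scavenger receptor of resident macrophages, were not detected on HFD and were at least 7.86-fold and 6.51-fold lower. Gm4952 differed by -2.70 ± 0.22.

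**Figure D1:**
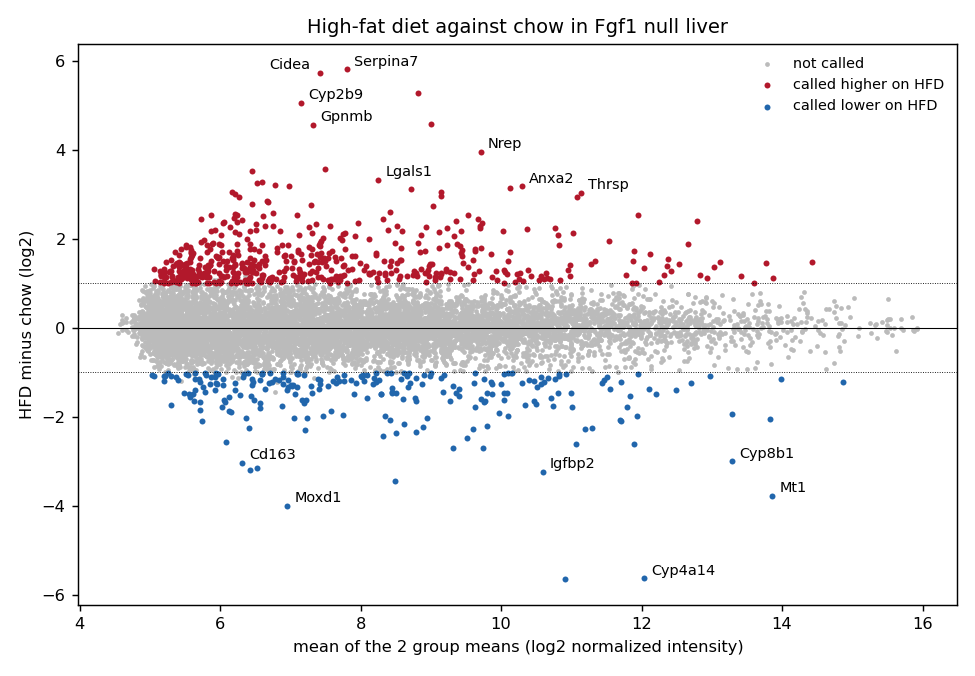
Each point is 1 of the 8894 features tested: its mean log2 intensity over the 2 diet groups of Fgf1 null liver (x axis) against its log2 difference, HFD minus chow (y axis), with dotted lines at a 2-fold change. Red marks the 523 features called higher and blue the 240 called lower, and Serpina7 (5.81) and Cyp4a14 (-5.62) lie near the extremes.

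Lipid droplet genes split. Of 17 tested, 4 were higher (Cidea, Mogat1, Cidec and Vldlr) and 2 lower (Pnpla2 and Plin5), with a median difference of 0.36 against 0.02 for all features. Cidec, which fuses lipid droplets into larger ones, read 8.55 and 8.73 on chow and 10.33 and 10.16 on HFD, a difference of 1.61 ± 0.28. Mogat1, which makes diacylglycerol, was higher by 2.59 ± 0.15, and Vldlr, a lipoprotein receptor, by 1.25 ± 0.17. Vldlr lost its call without background correction (0.55), with the authors' normalized values (0.79) and with an offset of 50 (0.81). Pnpla2, the lipase that opens triglyceride breakdown, fell from 12.11 and 12.01 to 10.88 and 10.76. Plin5, the droplet coat of oxidative tissues, was lower by -1.02 ± 0.14. Its call was lost with median scaling (-0.86), the authors' normalized values (-0.80) and an offset of 50 (-0.98). It was also lost without background correction (-0.92), without the second chow array (-0.94) and without the second HFD array (-0.95). Plin2, the main droplet coat of hepatocytes, differed by 0.09 ± 0.22. Pparg, the nuclear receptor that drives fat storage genes, was higher by 1.54 ± 0.12, or by 0.99 and not called over the mean of its probes. Of 14 genes of fatty acid uptake and binding, Lpl, which releases fatty acids from circulating lipoproteins, was higher by 2.45 ± 0.13 and the transporter gene Slc27a1 was at least 4.73-fold lower. These single calls are not far from the shares over all features, 5.88% higher and 2.7% lower.

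Of 25 genes of fatty acid and triglyceride synthesis, 8 were higher, 2 lower and 15 not called, with a median of 0.63. Thrsp, a lipogenic regulator, read 9.74 and 9.50 on chow and 12.57 and 12.74 on HFD, a difference of 3.04 ± 0.15. Acaca, the enzyme that makes malonyl-CoA, was higher by 2.23 ± 0.17, Srebf1, which encodes SREBP-1c, by 2.19 ± 0.13, and the elongase gene Elovl6 by 2.17 ± 0.17. Scd1, the desaturase that makes oleate, went from 13.69 and 13.70 to 15.15 and 15.19. Fasn, the fatty acid synthase itself, was not detected on chow and read 6.12 and 5.66 on HFD, and at 0.83 ± 0.18 it was not called. The 2 genes that fell were Lpin1, a phosphatidate phosphatase and PPARα co-regulator, at -1.46 ± 0.14, and the elongase gene Elovl3 at -1.30 ± 0.15. Glycolysis and pyruvate genes had 4 of 14 higher and 0 lower, led by Hk2 (hexokinase 2) at 2.11 ± 0.18 and Pkm, the pyruvate kinase of tissues other than hepatocytes, at 1.48 ± 0.13. Khk, which starts fructose breakdown, was higher by 1.13 ± 0.11. Without background correction 2 glycolysis genes were called, and with the authors' normalized values 1.

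Cholesterol synthesis genes were called only in the lower direction at the 2-fold minimum. Of 19 genes of cholesterol synthesis and uptake, 0 were higher and 5 lower, and their median was -0.47. Members not called reached 0.95. With a 1.5-fold minimum 2 were higher and 7 lower, and with median scaling 1 was higher and 5 lower. Msmo1, a sterol C4-demethylating oxidase, read 11.93 and 11.86 on chow and 10.23 and 10.01 on HFD, a difference of -1.78 ± 0.13. Sqle, squalene epoxidase, went from 10.10 and 10.06 to 8.38 and 8.88. Idi1, which isomerises isopentenyl diphosphate, and Tm7sf2, a sterol reductase, differed by -1.39 ± 0.23 and -1.32 ± 0.17. Srebf2, which encodes the SREBP-2 regulator of the pathway, differed by -1.31 ± 0.20. As for every feature called, the arrays of both diets stayed apart for each of the 5. Hmgcs1, an early enzyme of the pathway, read 13.42 and 13.40 on chow and 13.37 and 13.39 on HFD. Msmo1 and Sqle were the 2 genes still called without background correction and with the authors' normalized values.

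The promoters of the cholesterol genes called lower are shown because the pathway's regulators act on DNA close to the start site. RefSeq, in assembly GRCm38.p6, gave 1 for 4 of these 5 genes, all but Sqle, and each sequence runs from 250 bases before to 50 bases after the start. They lie at chr15:82147019-82147318 (plus strand) for Srebf2, chr13:8885356-8885655 (plus) for Idi1, chr19:6067801-6068100 (minus) for Tm7sf2 and chr8:64733529-64733828 (minus) for Msmo1. Capitals mark CCAAT on either strand, the motif of the factor NF-Y, which binds next to SREBP at many sterol genes.
Srebf2: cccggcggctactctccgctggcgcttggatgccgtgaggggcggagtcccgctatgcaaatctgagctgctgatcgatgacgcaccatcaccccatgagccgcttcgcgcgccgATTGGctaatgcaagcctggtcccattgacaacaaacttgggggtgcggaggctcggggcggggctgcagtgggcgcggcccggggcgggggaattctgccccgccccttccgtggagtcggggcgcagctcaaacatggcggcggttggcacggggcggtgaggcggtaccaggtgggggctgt
Idi1: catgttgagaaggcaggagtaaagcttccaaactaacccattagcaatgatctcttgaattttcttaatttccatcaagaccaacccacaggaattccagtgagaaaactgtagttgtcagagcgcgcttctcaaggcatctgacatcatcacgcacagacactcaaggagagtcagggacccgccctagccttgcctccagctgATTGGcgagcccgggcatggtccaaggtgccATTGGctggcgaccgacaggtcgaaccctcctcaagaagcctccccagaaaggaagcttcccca
Tm7sf2: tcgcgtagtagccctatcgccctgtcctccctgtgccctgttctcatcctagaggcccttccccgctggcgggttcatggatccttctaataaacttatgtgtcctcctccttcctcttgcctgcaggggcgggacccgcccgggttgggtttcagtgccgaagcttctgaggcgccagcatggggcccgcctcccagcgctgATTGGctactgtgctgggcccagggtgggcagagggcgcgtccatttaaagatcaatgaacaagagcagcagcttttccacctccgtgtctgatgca
Msmo1: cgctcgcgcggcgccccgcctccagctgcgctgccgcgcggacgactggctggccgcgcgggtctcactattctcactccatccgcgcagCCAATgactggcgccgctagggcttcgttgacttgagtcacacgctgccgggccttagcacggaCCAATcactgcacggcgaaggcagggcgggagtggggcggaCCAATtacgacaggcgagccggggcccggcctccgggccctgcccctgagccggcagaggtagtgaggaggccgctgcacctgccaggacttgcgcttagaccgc
CCAAT stood 1 time in Srebf2, 2 times in Idi1, 1 time in Tm7sf2 and 3 times in Msmo1, at 14 to 160 bases before the start. It was added to the search after the promoters had been read, and 38.2% of the promoters of all genes tested hold it on either strand, as do 34.9% of those of genes called higher and 38.9% of those called lower. Among the cholesterol genes that were not called, 11 of the 12 with a promoter hold it too. The other motifs searched on both strands were CACGTG, TCACCCCAC, TTATGTAA and 2 copies of AGGTCA separated by 1 base, and none of these letters stand in the 4 sequences. CACGTG was in 866 of 8650 promoters of genes tested, 33 of 482 of those called higher and 29 of 247 of those called lower.

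Of 35 genes of fatty acid oxidation, ketogenesis and PPARα targets, 7 were lower, 1 higher and 27 not called, with a median of -0.47. Below Cyp4a31 and Cyp4a14 came Ehhadh, a peroxisomal β-oxidation enzyme, which fell from 10.41 and 10.92 to 7.95 and 8, and Acot1, an acyl-CoA thioesterase, at -2.28 ± 0.26. Ppara itself read 7.5 and 7.45 on chow and 6.92 and 6.94 on HFD and was not called. Fgf21, a liver hormone that PPARα is known to induce, was the member that rose, from 8.17 and 7.91 to 9.89 and 9.66, a difference of 1.73 ± 0.15. Among 10 genes of FGF ligands, receptors and signalling, Fgf21 and Dusp6, a phosphatase that limits ERK, were higher and Fgf1 lower. Dusp6 (1.08 ± 0.20) lost its call without the first chow array (0.98) and without the second HFD array (0.94). It also lost it with the mean of its probes (0.69) and with the authors' normalized values (0.86). Of 29 genes of the mitochondrial respiratory chain 0 were called in limma and 5 had an unadjusted p under 0.05, with differences from -0.72 to 0.74 and a median of -0.06.

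Bile acid and drug metabolism genes held a few large decreases. Of 20 sterol efflux and bile acid genes, 2 were lower and 0 higher. Cyp8b1, the 12α-hydroxylase that sets the share of cholic acid, read 14.85 and 14.72 on chow and 11.81 and 11.77 on HFD, a difference of -2.99 ± 0.11. The transporter gene Slco1a4 differed by -2.28 ± 0.20. Cyp7a1, the rate-limiting enzyme of bile acid synthesis, differed by -0.97 ± 0.12, under 2-fold. Of 29 xenobiotic P450 genes and their receptors, 3 were higher (Cyp2b9, Cyp2c70 and Cyp2b13) and 3 lower (Cyp2b10, Cyp3a11 and Nr1i3). Cyp2c70, which makes the muricholic acids of mice, rose from 11.58 and 11.59 to 13.99 on both HFD arrays. Cyp3a11, the main drug-oxidizing P450 of mouse liver, differed by -1.93 ± 0.13, and Nr1i3, which encodes CAR, by -1.46 ± 0.13. Cyp2b9 and Cyp2b10 are close relatives measured by separate probes and moved in opposite directions. Phase II and glutathione genes had 5 of 35 higher, led by Gsta1, and 2 lower, Gstt2 and Sult5a1.

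Of 33 genes of the urea cycle and amino acid catabolism, 12 were lower and 1 higher, against a background of 2.7% lower, and the median was -0.55. Asl, which splits argininosuccinate into arginine in the urea cycle, read 12.32 and 12.41 on chow and 9.81 and 9.69 on HFD, a difference of -2.61 ± 0.20. Cth, which makes cysteine from cystathionine, fell from 10.78 and 10.70 to 8.40 and 8.55. Hal, the first enzyme of histidine breakdown, and Csad, which leads to taurine, differed by -2.24 ± 0.14 and -2.21 ± 0.16. Cps1, which feeds ammonia into the urea cycle and is also the hepatocyte marker that changed, went from 14.53 and 14.59 to 13.43 and 13.39. Psat1, of serine synthesis, was the member that rose, by 1.33 ± 0.22. Its call was lost without background correction (0.55), with the authors' normalized values (0.97) and with an offset of 50 (0.79). Gluconeogenic and insulin-responsive genes had 4 of 19 lower and 1 higher. Pck1, which commits carbon to gluconeogenesis, read 9.30 and 9.60 on chow and 7.25 and 7.52 on HFD, and Igfbp1, which insulin is known to repress, differed by -2.02 ± 0.22. Gys2, the liver glycogen synthase, differed by -1.64 ± 0.20, and Sik1, a cAMP-induced kinase, by -1.54 ± 0.25. G6pc, which releases glucose, read 13.03 and 12.98 on chow and 13 and 13.05 on HFD.

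**Figure D2:**
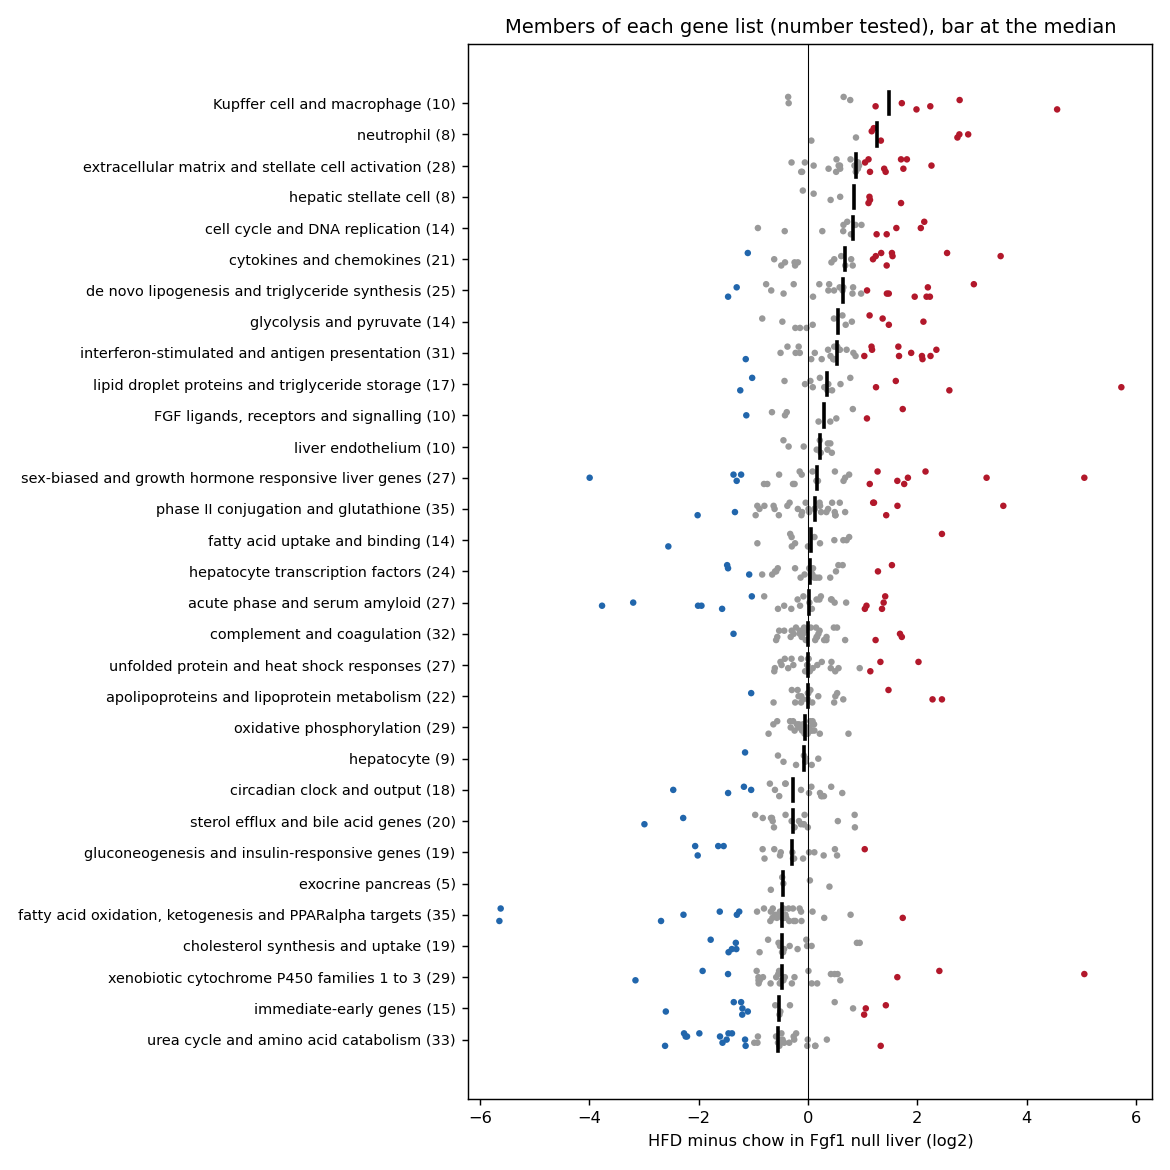
Points are the members of each list with at least 5 genes tested, placed by HFD minus chow in Fgf1 null liver (log2, x axis), red where called higher, blue where called lower and grey where not called, and a black bar marks the list's median. Macrophage and neutrophil markers have the highest fitted medians (1.48 and 1.27, the latter 0.86 with undetected genes at their bound), and the urea cycle and amino acid list the lowest (-0.55).

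Macrophage and neutrophil transcripts were higher on HFD. Of 10 Kupffer cell and macrophage markers tested, 6 were higher and 0 lower, with a median of 1.48. Their summed intensity was 2870 and 2959 on chow and 7165 and 7770 on HFD, and Cd5l and Marco were detected on none of the 4 arrays. Gpnmb and Trem2, both known from lipid-associated macrophages, read 9.48 and 9.72, and 7.90 and 7.80, on HFD, against 5.28 and 4.81, and 5.27 and 4.87, on chow. Each was detected on 1 of the 2 chow arrays. The lysozyme gene Lyz2 was higher by 2.24 ± 0.19, and Adgre1, an adhesion receptor that marks macrophages, by 1.99 ± 0.25. Markers of resident Kupffer cells were not called: Clec4f differed by 0.65 ± 0.16, Vsig4 by -0.36 ± 0.13 and Timd4 by -0.35 ± 0.19. Cd163, outside this list, was the resident macrophage gene that went below detection. In whole tissue, more cells of a type and more RNA per cell cannot be told apart, and likewise fewer cells and less RNA per cell. Neutrophil markers summed to 430 and 474 on chow and 2248 and 2288 on HFD, with 6 of 8 higher and 0 lower and a median of 1.27, or 0.86 with undetected genes at their bound. S100a8, a calgranulin, rose from 7.56 and 7.76 to 10.33 and 10.45, its partner S100a9 by 2.77 ± 0.15, and the granule protein gene Ltf by at least 5.61-fold. Without background correction 3 neutrophil genes were called.

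Erythroid markers had 2 of 4 higher, Slc4a1 and Hba-a1, with a median of 0.99, and their sum was 7987 and 8911 on chow and 17618 and 19266 on HFD, so red cell transcripts moved with the diet groups. The part of blood in the leukocyte results was not tested. Among lymphocyte markers 0 of 2 tested were called (2 at an unadjusted p under 0.05), and 7 of the 12 with a probe, Cd4 and Cd8a among them, were detected on none of the 4 arrays. Liver endothelium had 0 of 10 called in limma (4 at an unadjusted p under 0.05), cholangiocytes 0 of 3 (1), exocrine pancreas 0 of 5 (1), gallbladder and gut epithelium 0 of 3 (2). Adipocyte markers had 2 of 4 higher, Cidea and Car3, of which 1 was called when any single array of Fgf1 null liver was left out and with the authors' normalized values, Car3 losing its call (1.13 to 1.27 over the arrays left out). Their sum was 4885 and 4916 on chow and 12948 and 11764 on HFD, while Plin1, Retn and Fabp4 were detected on none of the 4 arrays. Most of that sum was Car3, which read 12.22 and 12.23 on chow and 13.5 and 13.36 on HFD. The other members tested, Lep (-0.15) and Lipe (0.05), were not called. Among muscle markers 1 of 2 was higher, Acta2, also an actin of activated stellate cells, which was 1.42 ± 0.18 by its brightest probe but 0.39 and not called over the mean of its probes, and 0.99 and not called with the authors' normalized values.

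Antigen presentation genes were mostly higher where they changed. Of 31 interferon-stimulated and antigen presentation genes, 10 were higher and 1 lower, with a median of 0.54. The 4 largest increases were all of the MHC class II pathway: H2-Eb1 at 2.35 ± 0.13, H2-Ab1 at 2.24 ± 0.13, H2-Aa at 2.10 ± 0.15 and the invariant chain gene Cd74 at 2.09 ± 0.13. H2-Ab1 read 9.65 and 9.66 on chow and 11.86 and 11.93 on HFD. Mx2, an interferon-induced GTPase, was the lower member at -1.14 ± 0.14. Its call was lost with median scaling (-0.90) and with the authors' normalized values (-0.70). It was also lost without background correction (-0.65) and with an offset of 50 (-0.87). Cytokine and chemokine genes had 8 of 21 higher, led by Ccl4 and by Ccl5, which rose by 2.55 ± 0.14, and 1 lower, Cxcl1. Cxcl1, a neutrophil attractant, read 11.04 and 11.19 on chow and 9.88 and 10.15 on HFD. Its call was lost with median scaling (-0.94), with the authors' normalized values (-0.86) and without the first HFD array (-0.98). Complement and coagulation genes had 3 of 32 higher, the macrophage-made C1qa, C1qb and C1qc, and 1 lower, C8b. These counts are not far from the shares over all features, 5.88% higher and 2.7% lower.

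Acute phase genes went both ways, with 5 of 27 higher and 6 lower. Orm2 (orosomucoid 2) was higher by 1.41 ± 0.13, Saa3 by 1.39 ± 0.21 and Lcn2 (lipocalin 2) by 1.36 ± 0.13. Beside Mt1 and Mt2, the lower members were led by Il6ra, the interleukin 6 receptor, at -2.01 ± 0.25 and Saa2, a serum amyloid A of hepatocytes, at -1.95 ± 0.16. Saa2 read 8.88 and 8.55 on chow and 6.83 and 6.71 on HFD, and Saa1, its near-identical neighbour, 8.88 and 8.86 on chow and 7.01 and 7.59 on HFD. Signals of Saa1 and Saa2 can be shared between their probes.

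Matrix and cell cycle genes were called only in the higher direction at the 2-fold minimum. Of 28 matrix and stellate cell activation genes 9 were higher and 0 lower, and the median was 0.88, or 0.82 with undetected genes at their bound. Mmp13, a collagenase, was higher by 2.26 ± 0.25, the protease inhibitor gene Timp1 by at least 2.27-fold, Mmp12, a macrophage elastase, by at least 2.33-fold and Col1a1, the main fibrillar collagen, by at least 2.68-fold. The count depended on the processing, being 3 without background correction, 5 with the authors' normalized values and 16 with median scaling. Of 8 hepatic stellate cell markers 4 were higher, which became 0 without background correction, 1 with the authors' normalized values, and 2 when any single array of Fgf1 null liver was left out. Col1a1, Col3a1 and Lrat are among both these 4 and the 9 matrix calls, so the counts overlap. Col3a1 and Lrat were not detected on chow and were at least 1.56-fold and 1.69-fold higher, bounds under the 2-fold minimum. Cell cycle and replication genes had 5 of 14 higher and 0 lower, among them Mcm5, of the replicative helicase, at 2.13 ± 0.19 and cyclin D1 (Ccnd1) at 2.07 ± 0.13. With a 1.5-fold minimum 9 were higher and 1 lower, and over the mean of probes 5 were higher and 1 lower.

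Growth hormone, clock and stress genes changed in small groups. Of 27 sex-biased and growth hormone responsive genes 8 were higher and 4 lower. Socs2, a feedback inhibitor that growth hormone induces, rose from 8.01 and 8.07 to 10.02 and 10.37, and Hsd3b5, a male-biased steroid dehydrogenase, by 1.27 ± 0.13. Female-biased Cyp2b9 and Cyp2b13 were also higher, the latter by at least 2.25-fold. Of 18 clock and output genes 4 were lower and 0 higher, with Ciart, a clock repressor, going from 10.73 and 10.77 to 8.31 and 8.26. Dbp, a clock output factor, differed by 0.26 ± 0.13 and Arntl, which encodes BMAL1, by 0.29 ± 0.23. Immediate-early genes had 6 of 15 lower and 3 higher, but the 3 became 1 without the first HFD array or with the authors' normalized values and 0 without background correction or with an offset of 50. Gadd45g, a stress-induced gene, fell from 13.24 and 13.16 to 10.57 and 10.62, and Junb, an AP-1 subunit, differed by -1.36 ± 0.12. Of 27 unfolded protein and heat shock genes 3 were higher and 0 lower, and 1 was higher without the second HFD array or without background correction. Pdia6, a disulfide isomerase, differed by 2.02 ± 0.19. Apolipoprotein and lipoprotein genes had 3 of 22 higher, including Angptl8 at 2.28 ± 0.12 and Apoa4 at 1.47 ± 0.12, and 1 lower, Apom. Of 24 hepatocyte transcription factors Pparg and Hhex were higher and Klf15, Nr1i3 and Cebpb lower, while Hnf4a differed by -0.24 ± 0.12. Without background correction the calls were 6 of the antigen presentation and interferon list, 3 of the cytokines, 3 of the acute phase list, 2 of the cell cycle list and 3 of the phase II list that were higher. With the authors' normalized values 2 clock genes, 2 sex-biased genes and 2 immediate-early genes were lower, and 1 erythroid marker was higher.

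The same diet comparison in wild-type liver called 288 features higher (3.24%) and 221 lower (2.48%). Of the features called higher on HFD, 93 were shared, which is 17.8% of those in Fgf1 null and 32.3% of those in wild-type liver. Of those called lower, 64 were shared, or 26.7% and 29%. Another 11 were higher in Fgf1 null and lower in wild-type liver, and 11 the reverse. Serpina7, Acaca, Scd1, Cyp8b1 and Cyp2b10 were called in the same direction in both genotypes. The difference between the diet effects, tested as an interaction in limma, was called for 703 features (7.9%), 403 more positive (4.53%) and 300 more negative (3.37%) in Fgf1 null liver.

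The 2 largest positive interactions among named genes were of CIDE genes of the lipid droplet. Cidea was not detected on any wild-type array, and its interaction was 5.66 ± 0.17, a value that rests on levels below background in the other 3 groups. Cidec read 8.88 and 8.65 on wild-type chow and 5.65 and 4.71 on wild-type HFD, where it was detected on 1 of the 2 arrays. It thus fell in wild-type liver by -3.58 ± 0.28 and rose in Fgf1 null liver, an interaction of 5.19 ± 0.39. The sizes of that fall and of the interaction rest in part on a level near background. Of the 17 lipid droplet genes 9 had a positive and 0 a negative interaction, and in wild-type liver 0 were higher and 6 lower on HFD. Acot3, a peroxisomal acyl-CoA thioesterase, went from 11.10 and 11.22 to 5.52 and 5.54 in wild-type liver but differed by -0.80 ± 0.12 in Fgf1 null liver. Among the 35 fatty acid oxidation genes 18 were lower in wild-type liver, and 12 had a positive and 1 a negative interaction. Cyp4a14 fell in both, by -7.89 ± 0.18 in wild-type and -5.62 ± 0.18 in Fgf1 null liver. Fgf21 was lower on HFD in wild-type liver, by -1.59 ± 0.15, and its interaction was 3.33 ± 0.21.

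Cholesterol synthesis had the interaction median farthest from 0 of all lists, at -1.94. In wild-type liver 12 of 19 genes were higher on HFD and 0 lower, with a median of 1.30, and 14 of 19 had a negative and 0 a positive interaction. Sqle read 9.01 and 9.20 on wild-type chow and 11.10 and 10.97 on wild-type HFD, and its interaction was -3.38 ± 0.25. Hmgcs1, at -0.03 ± 0.11 in Fgf1 null liver, was higher on HFD in wild-type liver by 1.30. Fatty acid synthesis had 13 of 25 higher in wild-type liver, and 5 negative and 0 positive interactions. Thrsp rose by 5.23 ± 0.15 in wild-type liver from a lower chow level of 7.20 and 7.15, to 12.54 and 12.28, close to its HFD level in Fgf1 null liver. Urea cycle and amino acid genes had 4 of 33 lower in wild-type liver, and 12 negative and 1 positive interactions.

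Inflammatory genes differed in both directions. Saa2 read 6.78 and 6.50 on wild-type chow and 10.47 and 10.57 on wild-type HFD, the reverse of Fgf1 null liver, and its interaction was -5.83 ± 0.22. Hamp2, a hepcidin, and Tff3, a trefoil factor of mucosal cells, rose on HFD in wild-type liver by 4.59 ± 0.13 and at least 10.8-fold, against 0.70 ± 0.13 and -0.82 ± 0.21, neither called, in Fgf1 null liver. Acute phase genes had 9 negative and 2 positive interactions among 27. Macrophage markers were higher in wild-type liver too, with 6 of 10 called and a median of 1.03, but they were not all the same genes. Gpnmb (0.16), Trem2 (0.51) and Lyz2 (0.75) were not called in wild-type liver, where Clec4f was, at 1.09. In this list 3 genes had a positive and 2 a negative interaction. Of the 8 neutrophil markers 0 were called in limma in wild-type liver (2 at an unadjusted p under 0.05), where their sum was 319 and 357 on chow and 271 and 317 on HFD, and 6 had a positive interaction. H2-Ab1 was lower on HFD in wild-type liver, by -1.12 ± 0.13, with an interaction of 3.36 ± 0.18, and Socs2 was lower there by -1.75 ± 0.14, with an interaction of 3.90 ± 0.20. Moxd1 read 8.59 and 8.71 on wild-type chow and 9.71 and 9.73 on wild-type HFD, and its interaction was -5.06 ± 0.19. Each of these differences is between 4 RNA samples, and differences between mice of 1 group were not measured.

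**Figure D3:**
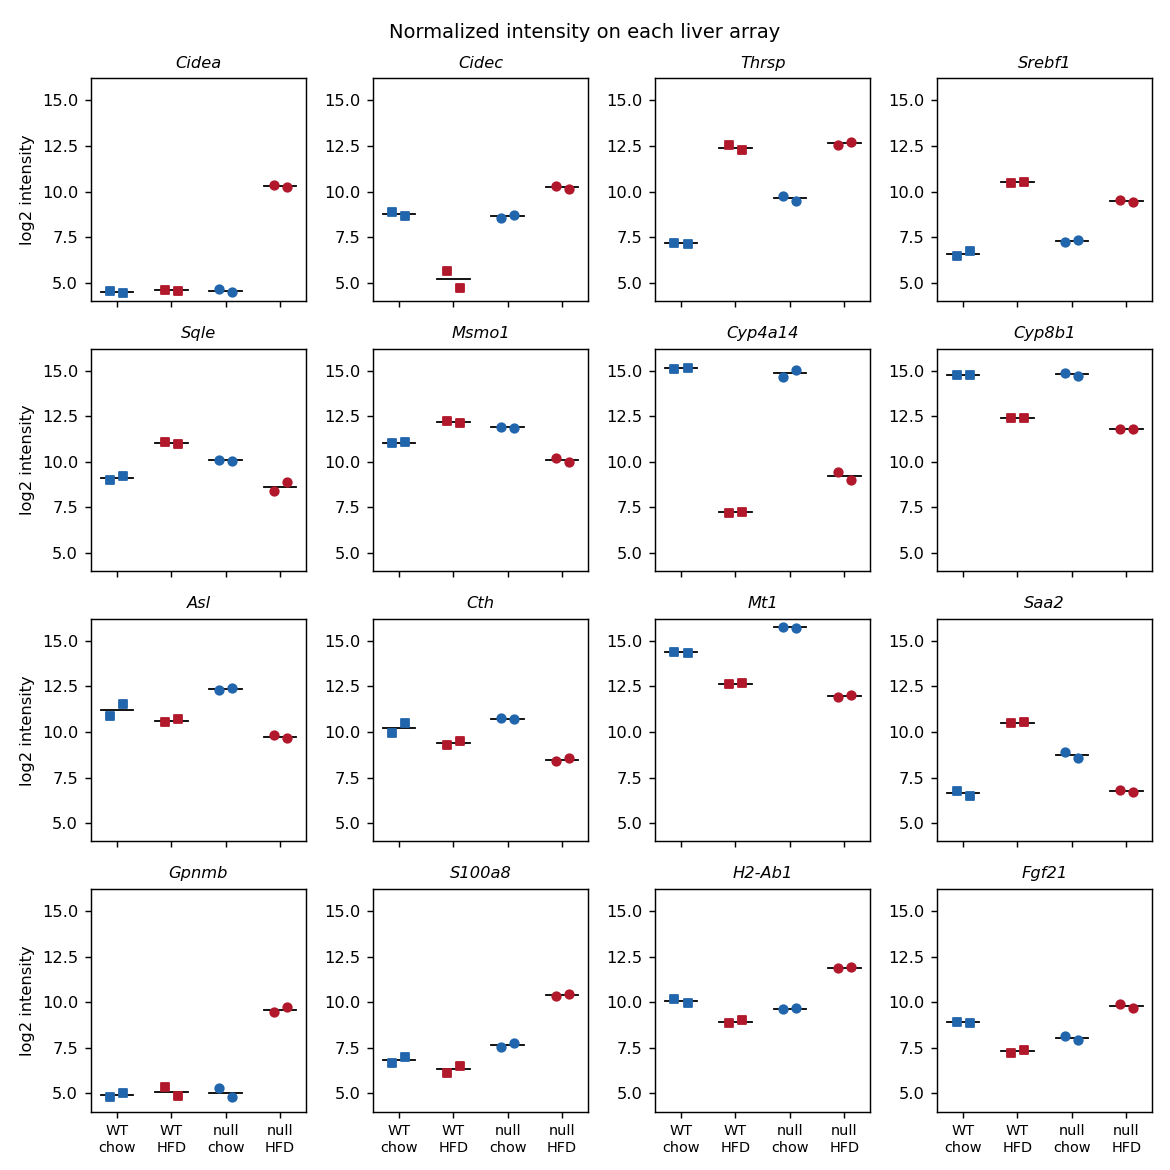
Normalized log2 intensity (y axis) of 16 genes on each of the 8 liver arrays, by genotype and diet (x axis), with squares for wild-type, circles for Fgf1 null, blue for chow, red for HFD and a bar at the mean of the 2 arrays. Cidec, Fgf21 and H2-Ab1 are higher on HFD in Fgf1 null and lower in wild-type liver, and Sqle, Msmo1 and Saa2 the reverse.

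**Figure D4:**
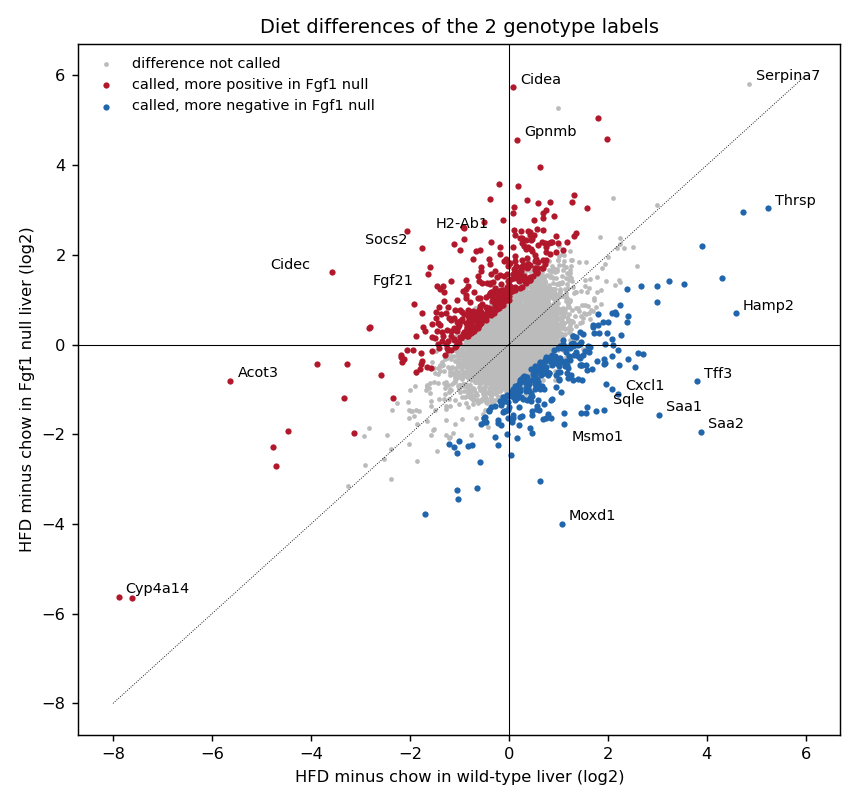
Each point is a tested feature, with HFD minus chow in wild-type liver on the x axis and in Fgf1 null liver on the y axis (log2), and a dotted line where both are equal. Red marks the 403 features with a called positive interaction and blue the 300 with a called negative one, with Cidec (5.19) and Saa2 (-5.83) in opposite quadrants.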

How the data were processed

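Biotin-labelled cRNA made from total liver RNA was hybridized to Illumina bead arrays of 1 colour, per the labels' protocols. Processing was in GenomeStudio, per the submitters' processing notes, with no version. The deposited non-normalized table gives linear probe intensity with its detection p-value for each array. Another deposited table holds normalized intensity of unstated method and was used as an alternative (rank correlation 1 with its own array, at most 0.893 with another liver array, medians 134.6 to 134.8).

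Tables were read with data.table (version 1.17.8) under R (version 4.3.3). In limma (version 3.58.1), neqc corrected the background from the detection p-values with an offset of 16 and quantile normalized the 8 liver arrays on the log2 scale. This spreads out dim probes, so their differences are larger than in uncorrected values. Differences of the 1 to 9 probes per array above 60000 are compressed. Probes with a detection p under 0.05 on both arrays of some liver group entered the fit (11580), and a gene was read from its brightest probe. Gene symbols came from the platform annotation (23978 probes with 1 symbol, 1719 with none), of which 23962 matched RefSeq, and 0 symbols changed. lmFit and eBayes fitted a mean per group with 4 residual and 3.64 prior degrees of freedom, and the fit was tested on simulated data. Precision is limited by the number of arrays, and the median SD within groups was 0.159 (log2).

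The 25 pathway lists and 12 marker lists, the members and the naming rule were chosen with earlier results of these data known. Named genes are the 12 largest called increases and decreases without overlap of arrays, up to 4 called members of each list in each direction, the 6 largest interactions each way, up to 3 members of a list that were not called, and some genes chosen in advance. Of the last, Cd36 and Fabp4 did not pass the probe filter, and some others are not reported here. Array numbers do not pair the arrays: same-numbered arrays of different groups had deviations that correlated at -0.0679 to 0.0142 over 6 pairs. No slide or scan date is given. The alternatives tried concern the background, scaling, probe filter, probe summary, fold minimum, arrays left out, array number as a block and the RNA sample as the unit.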

Additional observations from a re-analysis of the deposited data

Results flagged for a closer look

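In 11 named genes the diet difference was called in opposite directions in Fgf1 null and wild-type liver and the interaction between diet and genotype was itself called by limma (adjusted p at most 0.00155, n = 2 arrays of 1 RNA sample in each group). Those higher on HFD in Fgf1 null and lower in wild-type liver were Cidec (interaction 5.19), Socs2 (3.90), H2-Ab1 (3.36) and Fgf21 (3.33). Those lower in Fgf1 null and higher in wild-type liver were Saa2 (-5.83), Moxd1 (-5.06), Saa1 (-4.60), Sqle (-3.38), Cxcl1 (-3.30), Idi1 (-2.97) and Msmo1 (-2.90). The groups also differed on chow, where Fgf1 null minus wild-type was 3.06 for Cxcl1, 2.08 for Saa2, 1.70 for Saa1, 1.31 for Idi1 and below 0 for Socs2, and lay between -0.86 (Fgf21) and 0.98 (Sqle) for the other 6.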

How the results depend on the processing

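Against 763 calls for diet in Fgf1 null liver and 703 for its difference from wild-type liver, no background correction gave 332 and 346, the authors' normalized values 369 and 382, a 1.5-fold minimum 1773 and 1182, and no fold minimum 2437 and 1182. An offset of 50 gave 472 diet calls, and the additive model on RNA samples 0. Under that model, which averages the genotypes, 6 named genes reversed: Cidec (-0.99), Cxcl1 (0.55), Idi1 (0.0904), Sqle (0.24), Saa1 (0.73) and Saa2 (0.97). Leaving out 1 array at a time gave 704 to 783 diet calls and 496 to 847 interaction calls. With 1 array left in a group, that array was assumed to vary like the other groups. Of the 138 named genes called, 16 lost the call without some array. These were Hmox1, Car3, Rgs5, Lrat, Cd14, Ier3, Atf3 and Cxcl1 without the first HFD array of Fgf1 null liver, and Hmox1, Mcm6, Hspa1a, Car3, Asns, Col3a1, Lrat, Dusp6, Pygl and Plin5 without the second. They were Hspa1a, Car3, Col3a1, Lrat, Dusp6, Ier3 and Pygl without the first chow array, and Hmox1, Mcm6, Hspa1a, Car3, Col3a1, Lrat, Cd14, Plin5 and Cebpb without the second. Atf3 and Col3a1 also lost it without 1 wild-type HFD array each. The differences without an array were 1.13 to 1.27 for Car3 and -1.16 to -0.98 for Cebpb. The array number as a replicate block, which does not pair the arrays, gave 762 and 655 calls and changed the call of 0 named genes. Without background correction 37 named genes lost the call and with the authors' values 39; the cause was not tested. Depth of signal limits 120 genes called higher that were not detected on chow and 26 called lower that were not detected on HFD.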
